A study of Mus musculus with 58 samples.

Results

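Tau, the microtubule-associated protein encoded by *Mapt*, was examined at the mRNA level together with 9 genes whose products add phosphate to it or take phosphate off it. The kinase genes were *Gsk3b*, *Cdk5*, *Mark1*, *Mark2*, *Mark3*, *Mark4* and *Ttbk1*. *Cdk5r1* encodes p35, the activator that CDK5 needs, and *Ppp2ca* encodes the alpha catalytic subunit of the phosphatase PP2A. These 10 genes were taken by symbol from a fixed list, and each was found once in both regional tables, among 31246 genes listed in each table.

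The mice were *APOE* targeted replacement animals, whose own *Apoe* had been exchanged for the human gene. All were C57Bl/6 males aged 14 to 15 months, and 10 of them were *APOE3/3* and the other 19 *APOE3/4*. RNA from the entorhinal cortex (EC) and from primary visual cortex (PVC) of each mouse was sequenced, giving 29 libraries per region and 58 in all, with the same 29 animal numbers in both regions. Of these libraries, 2 from the EC and 5 from the PVC were run more than once. Both genotypes carry human *APOE* on both chromosomes, so no group had the mouse gene.

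The value used for each gene was the authors' mean normalized count in a region, taken over all 29 libraries with the genotypes pooled. Each table also had 5 columns with the authors' own comparison of the genotypes, which were not used, so no value below compares *APOE3/4* with *APOE3/3* mice. A pooled mean has no spread between mice, and no standard deviation or *p*-value could be given for any level or ratio that follows. The depth of single libraries was not analysed here. Each region had been normalized on its own, and its values added up to 49385488 for the EC and to 27058393 for the PVC.

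Tau binds along microtubules through a set of repeats, and phosphate on or near the repeats loosens this binding. In Alzheimer's disease, tau with excess phosphate aggregates into neurofibrillary tangles, and the EC is among the earliest cortical areas to show them, while primary visual cortex is affected late. The kinases fall into those that act on a serine or threonine before a proline, such as GSK3B and CDK5, and those that act on other residues, such as the MARK and TTBK kinases, while PP2A is the main phosphatase that acts on tau in brain.

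Mouse *Mapt* lies on the plus strand of chromosome 11 at chr11:104092704-104193404 in NCBIM37, the mm9 genome build to which the reads were aligned. Its longest annotated coding transcript encodes 749 residues, of which 136 are serine or threonine. Of these, 27 stand directly before a proline. Both counts hold for this longest form only, and which of the 14 annotated transcripts was expressed in the EC and the PVC was not analysed. The protein has 4 motifs of the form KXGS, 1 in each microtubule-binding repeat, and the serine of this motif is the residue that MARK kinases phosphorylate. The coding sequences around 2 of these motifs, read from the NCBIM37 genome, follow because they are where tau and the MARK family meet. The 4 codons of each motif are in capitals, and exons are numbered along the longest coding transcript.

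KXGS motif in exon 9 of 13, chr11:104171789-104171824: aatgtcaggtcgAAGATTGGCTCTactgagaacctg

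KXGS motif in exon 11 of 13, chr11:104182698-104182733: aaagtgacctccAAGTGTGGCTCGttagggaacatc

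The next 3 sequences hold residues before a proline that GSK3B or CDK5 phosphorylate and that the antibodies AT8, AT180 and PHF-1 read on phosphorylated tau. Capitals mark a serine and a threonine codon for AT8, a threonine codon with the proline codon after it for AT180, and both serine codons of the site with the proline codons after them for PHF-1.

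AT8 site, exon 9 of 13, chr11:104171618-104171656: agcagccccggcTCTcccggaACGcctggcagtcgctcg

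AT180 site, exon 9 of 13, chr11:104171699-104171737: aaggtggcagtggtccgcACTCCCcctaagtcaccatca

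PHF-1 site, exon 13 of 13, chr11:104189352-104189399: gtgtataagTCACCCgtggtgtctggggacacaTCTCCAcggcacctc

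*Mapt* had a high level in both regions. Its mean normalized count was 28853 in the EC against 16234 in the PVC, the highest of the 10 genes in each table before length was taken into account. This placed it at the 98.8th percentile in the EC and the 98.8th percentile in the PVC, among the genes that reached 10 in the table concerned (16941 in the EC against 15682 in the PVC). A longer mRNA yields more fragments, so levels were ordered between the genes after division by exon length in kilobases, and also by coding length where the order depended on it. Ratios of undivided counts between genes are given to set their value in the EC beside that in the PVC, not as a measure of which gene was higher. On that scale *Mapt* stood at 3831 per kilobase in the EC and 2156 per kilobase in the PVC, just below *Cdk5r1*, the highest of the 10 genes, at 3908 and 2179. The difference between these neighbours is small, and no spread was at hand to judge it.

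The levels of the regions can be set against each other only after the tables are put on a common scale, because each was normalized on its own. The median ratio of EC over PVC was 1.83 among the 12097 genes that reached 100 in both tables, and this ratio was divided out, so that a log2 ratio of 0 stands for a gene at the median. On that scale *Mapt* had a log2 ratio of -0.05. The middle 50% of all genes spanned -0.13 to 0.13, so the *Mapt* ratio lay inside it.

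None of the 10 genes had a log2 ratio of 0.5 or more in either direction. Among all 12097 genes, 5.32% were higher in the EC by at least that much and 5.28% were higher in the PVC. The 10 ratios ran from -0.30 for *Mark1* to 0.23 for *Mark4*, with a median of -0.02, where the median of all genes is 0 by construction. Of the 10 genes, 7 lay inside the middle 50% of all genes, the exceptions being *Mark1*, *Mark4* and *Ttbk1*. The same mice gave both regions. Without values of single mice, ratios this small cannot be told apart from variation of the regional ratio between mice or libraries.

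**Figure D1:**
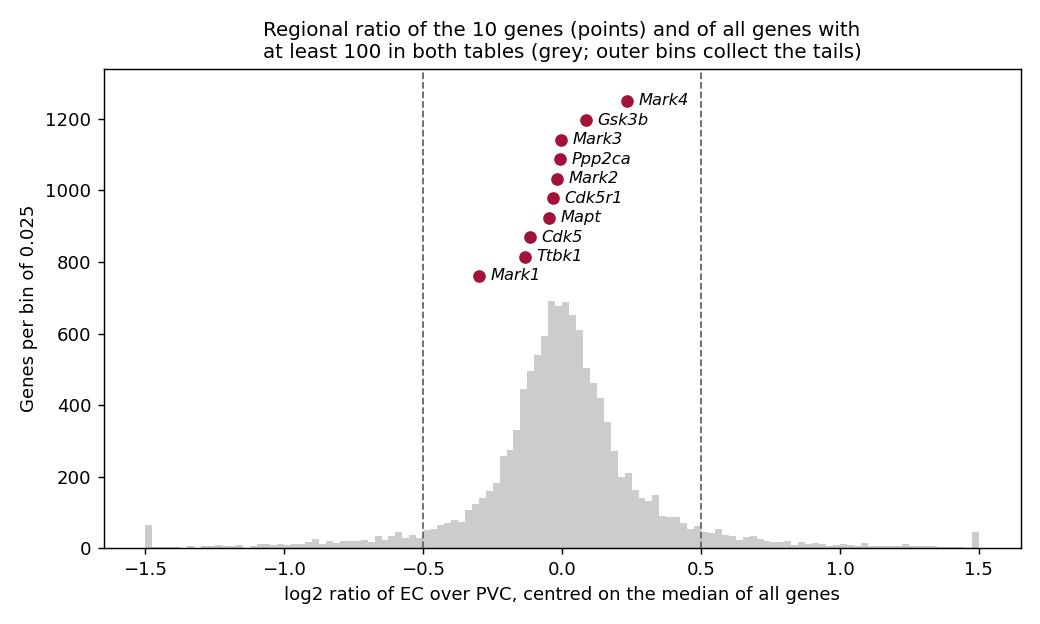
The horizontal axis is the log2 ratio of EC over PVC, centred on the median of all genes, and the grey bars count the 12097 genes in bins of equal width, with the tails collected in the outermost bins. Red points are the 10 genes, placed by their ratio with height used only to separate them, and all of them lie between the dashed lines at -0.5 and 0.5.

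Of the kinases that act before a proline, *Gsk3b* encodes glycogen synthase kinase 3 beta, which is active in resting cells and is inhibited by AKT. It lies on the plus strand at chr16:38089087-38246170. The mean normalized count of *Gsk3b* was 12372 in the EC against 6354 in the PVC, at the 95.5th and 94.7th percentiles, and its log2 ratio was 0.09. *Gsk3b* and *Mark4* were the only genes of the 10 with a ratio above 0, although *Mark3* and *Ppp2ca*, both very close to 0, also came above it under other scales.

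The paralog *Gsk3a*, which encodes the closely related alpha kinase, had a mean normalized count of 7881 in the EC against 4716 in the PVC, with a log2 ratio of -0.13. The ratio of *Gsk3b* to *Gsk3a* counts was 1.57 in the EC against 1.35 in the PVC, and this comparison needs no scale between the tables. Which of the paralogs was higher depended on the length used. *Gsk3b* made up 26.5% of the summed *Gsk3a* and *Gsk3b* level per kilobase of exon in the EC against 23.6% in the PVC, but 64.0% and 60.4% per kilobase of coding sequence. The exons of *Gsk3b* span 9831 bases and its longest coding transcript has 1302 coding bases.

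*Cdk5* encodes a kinase that is active mainly in neurons, where its activators are made, and lies on the minus strand at chr5:23924068-23929348. Its mean normalized count was 4713 in the EC against 2783 in the PVC, at the 84.9th percentile in both tables. With only 2050 bases of exon it stood in the third place of the 10 per kilobase, at 2299 in the EC against 1358 in the PVC, and its log2 ratio was -0.12.

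The protease calpain cuts p35 to the longer-lived p25. The gene of p35, *Cdk5r1*, lies on the plus strand at chr11:80290548-80294681 and had a mean normalized count of 16154 in the EC against 9009 in the PVC, at the 97.0th and 96.9th percentiles, and its log2 ratio was -0.03. Per kilobase of exon it exceeded *Cdk5* itself 1.70-fold in the EC against 1.61-fold in the PVC, and per kilobase of coding sequence 3.26-fold and 3.08-fold. The other activator gene, *Cdk5r2*, which encodes p39, had a mean normalized count of 11118 in the EC against 7056 in the PVC and a log2 ratio of -0.22. *Cdk5r1* made up 46.8% of the 2 activators per kilobase of exon in the EC against 43.6% in the PVC, but 63.6% and 60.5% per kilobase of coding sequence, so the order of the activators also depended on the length used.

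The MARK kinases, named for their effect on microtubule affinity, detach tau from microtubules by acting on the KXGS motifs. They are switched on by phosphate on a threonine of the activation loop, which the kinase LKB1 (*Stk11*) adds. The 4 loops are encoded in exon 8 of the longest coding transcript of each gene and are shown 5′ to 3′ on the coding strand, with the codon of that threonine in capitals.

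Mark1, minus strand, chr1:186743514-186743555: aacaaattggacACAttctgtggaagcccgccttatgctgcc

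Mark2, minus strand, chr19:7360339-7360380: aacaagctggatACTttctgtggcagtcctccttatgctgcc

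Mark3, plus strand, chr12:112865365-112865406: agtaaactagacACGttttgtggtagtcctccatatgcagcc

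Mark4, minus strand, chr7:20028583-20028624: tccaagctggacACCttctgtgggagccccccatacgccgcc

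All 4 codons in capitals encode threonine. The pairs of MARK proteins were identical at 60.2% to 76.8% of aligned residues. The longest run of bases shared by the longest coding transcripts of a pair, untranslated ends included, was 65, between *Mark1* and *Mark3*. This is shorter than the reads, which were 149 bases long, so a full-length read within the coding sequence could be placed on a single gene of the family.

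*Mark1* had the lowest ratio of the 10 genes. Its mean normalized count was 5132 in the EC against 3438 in the PVC, so after scaling it was 1.23-fold higher in the PVC, a log2 ratio of -0.30. Of all 12097 genes, 10.6% had a lower ratio, which places *Mark1* toward the PVC side but inside the middle 90% of all genes. The gene lies on the minus strand at chr1:186720322-186823428.

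*Mark4* had the highest ratio. Its mean normalized count was 3717 in the EC against 1721 in the PVC, which after scaling was 1.18-fold higher in the EC, a log2 ratio of 0.23. Here 85.0% of all genes had a lower ratio. *Mark4* lies on the minus strand at chr7:20010816-20043843, 237.6 kb from the *Apoe* locus at chr7:20281458-20284515, the locus that was replaced in all of these mice. Whether this position has a part in the value of *Mark4* was not tested.

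*Mark2* and *Mark3* sat at the median of all genes. *Mark2*, on the minus strand at chr19:7349886-7416350, had a mean normalized count of 6695 in the EC against 3691 in the PVC and a log2 ratio of -0.02. *Mark3*, on the plus strand at chr12:112812721-112894438, had a mean normalized count of 3954 in the EC against 2160 in the PVC and a log2 ratio of -0.003. A shift of the scale between the tables by as little as 0.01 gives *Mark3* the other sign.

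The make-up of the MARK family differed between the regions in *Mark1* and *Mark4*, in opposite directions. The count of *Mark1* was 1.38 times that of *Mark4* in the EC and 2.00 times in the PVC, a comparison within each table that does not depend on the scale between them. Per kilobase of exon, *Mark4* was the highest of the 4 in the EC with 28% of the summed level and *Mark1* had 26%. In the PVC *Mark1* was the highest with 31.3% and *Mark4* had 23.4%. *Mark2* held 19.4% and 19.2% and *Mark3* held 26.6% and 26.2%. Per kilobase of coding sequence *Mark1* went from 25.6% in the EC to 30.4% in the PVC and *Mark4* from 19.6% to 16.1%. *Mark2* was then the highest of the family in both regions, with 34.1% and 33.4%. The ordering within the family was thus a matter of the length chosen. The direction of the *Mark1* and *Mark4* shares follows from the counts with any length, because a gene's length is the same in both regions. Its agreement between the lengths is therefore no separate result.

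**Figure D2:**
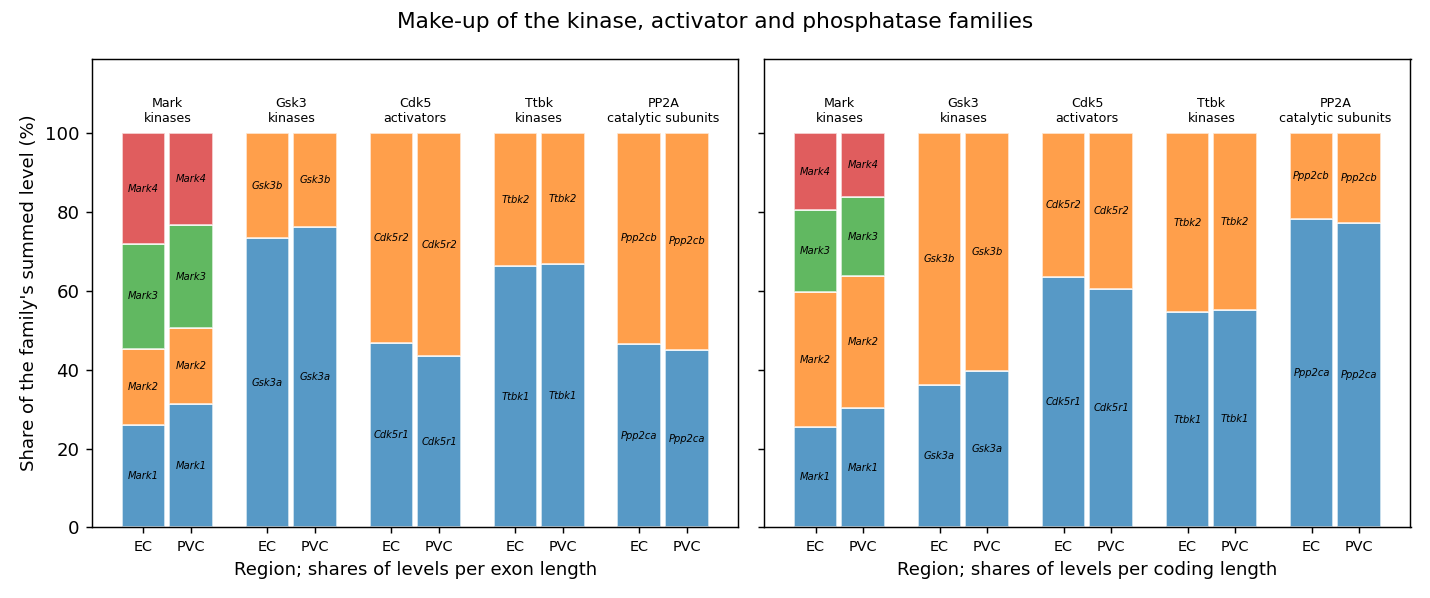
Each bar is the summed level of a family in the EC or the PVC, set to 100%, and its segments are the shares of the named genes, computed per exon length on the left and per coding length on the right. The *Mark1* segment is larger in the PVC than in the EC in both panels, which the counts fix whatever the lengths. The order of *Gsk3a* and *Gsk3b*, of *Cdk5r1* and *Cdk5r2*, and of *Ppp2ca* and *Ppp2cb* is turned around between the panels.

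*Ttbk1* encodes tau tubulin kinase 1, which is found mostly in neurons. It lies on the minus strand at chr17:46579397-46624624. *Ttbk1* had a mean normalized count of 6826 in the EC against 4079 in the PVC, at the 90th and 90.3rd percentiles, and its log2 ratio was -0.13. The more widely expressed paralog *Ttbk2* had a mean normalized count of 5690 in the EC against 3313 in the PVC and a log2 ratio of -0.10. *Ttbk1* made up 66.3% of the 2 genes per kilobase of exon in the EC against 66.9% in the PVC, and 54.6% and 55.3% per kilobase of coding sequence, so here *Ttbk1* was the higher paralog with either length.

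*Ppp2ca* lies on the plus strand at chr11:51912183-51941280. The level of *Ppp2ca* as a mean normalized count was 15362 in the EC against 8414 in the PVC, at the 96.8th and 96.6th percentiles, and its log2 ratio was -0.01. The exons of other annotated genes cover 41.1% of its exon bases, namely those of 2 microRNA entries and a long non-coding RNA on the opposite strand, and the library kit did not mark the strand. None of these 3 entries is protein coding, and the methods state that only protein-coding genes were counted. The tables nevertheless list many non-coding symbols, 1 of these 3 entries among them, so how reads on the shared bases were assigned is not known, and the *Ppp2ca* level is uncertain to that extent. The exons of the other 9 genes had no overlap with any annotated gene.

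The other catalytic subunit gene of PP2A, *Ppp2cb*, had a mean normalized count of 4283 in the EC against 2493 in the PVC and a log2 ratio of -0.10. Its protein is identical to that of *Ppp2ca* at 97.4% of residues, but the longest coding transcripts of the pair share no run longer than 25 bases. *Ppp2ca* counts were 3.59 times those of *Ppp2cb* in the EC and 3.37 times in the PVC. Per kilobase of exon *Ppp2ca* made up 46.6% of the pair in the EC against 45.1% in the PVC, but 78.2% and 77.1% per kilobase of coding sequence.

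PP2A works as a complex of a catalytic, a scaffold and a regulatory subunit. *Ppp2r1a* made up 97.0% of the scaffold genes per kilobase of exon in the EC against 96.8% in the PVC, and its log2 ratio was 0.08. The regulatory subunits direct the enzyme to its substrates. All 10 regulatory genes of the list were within a log2 ratio of -0.21 to 0.23. The lowest was *Ppp2r2c*, which at 38% of the regulatory level per kilobase of exon in the EC against 42.3% in the PVC also had the highest level of them, and the highest ratio was that of *Ppp2r2b*. Both encode subunits of the B family, through which PP2A can bind tau.

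Set side by side, the 10 genes kept much the same order in both regions. Per kilobase of exon *Cdk5r1*, *Mapt*, *Cdk5* and *Ppp2ca* held the 4 highest places in this order in the EC and in the PVC, and *Mark2* the lowest. *Mark1* was the eighth of the 10 in the EC and the fifth in the PVC, and *Mark4* the sixth and the ninth. The highest level was 4.64 times the lowest in the EC and 4.69 times in the PVC. With coding length in place of exon length *Ppp2ca* came above *Mapt* and *Gsk3b* above *Cdk5* in both regions, with *Cdk5r1* still the highest and *Mark4* the lowest. The place of *Mapt* here rests on its longest coding transcript, of 14 annotated. Which of them was expressed was not analysed. A shorter coding length would raise the level of *Mapt* on this scale and could change its place in the order.

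**Figure D3:**
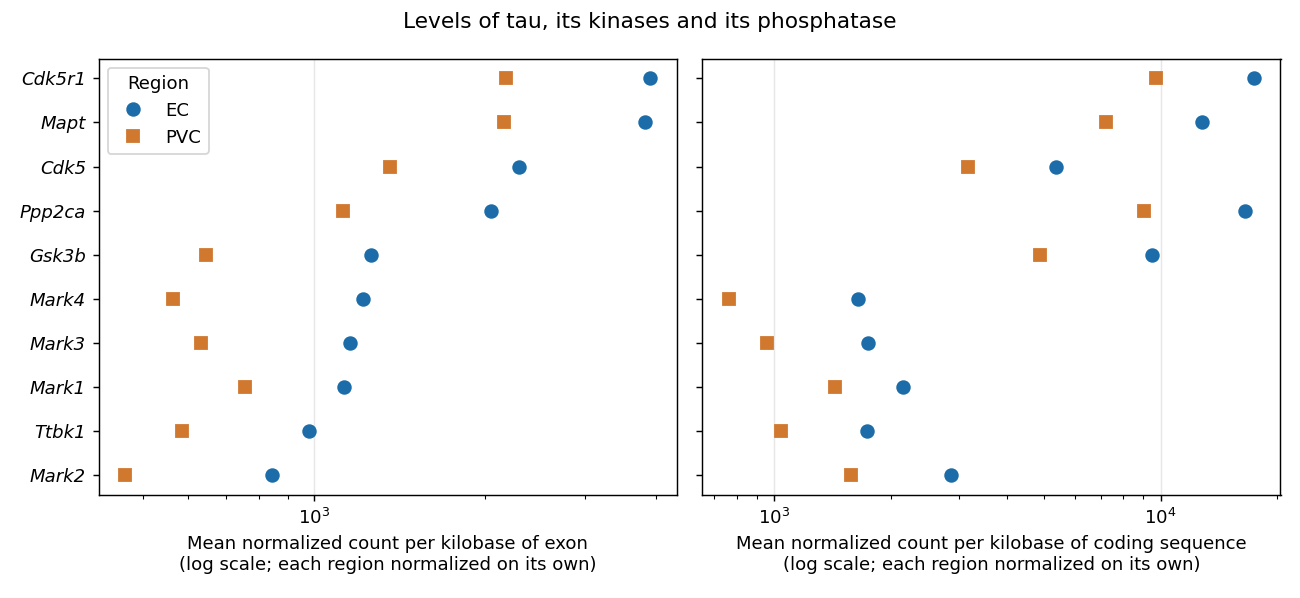
Each point is the authors' mean normalized count of a gene in the EC (circles) or the PVC (squares) over all 29 libraries of the region, divided by exon length on the left and by coding length on the right, on log axes. All EC points lie to the right of the PVC points of the same gene, and the tables were normalized separately. The distance between the points of a gene is wider for *Mark4* and narrower for *Mark1* than for the other genes.

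A wider set of 79 genes that act on tau or stand beside it on microtubules was drawn up by role, of which 78 were matched in the tables. Of these, 2 were higher in the EC by a log2 ratio of at least 0.5 and 1 was higher in the PVC, where the background is 5.32% and 5.28% of all genes. Their median was -0.06.

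The one PVC-side gene was *Sgk1*, a kinase gene that glucocorticoids induce, with a mean normalized count of 1655 in the EC against 1865 in the PVC and a log2 ratio of -1.05. On the EC side stood *Mapk3*, which encodes the kinase ERK1, with 12010 in the EC against 3670 in the PVC and a log2 ratio of 0.83. The other was *Tubb2a*, a beta tubulin gene, with 28378 in the EC against 9786 in the PVC and a log2 ratio of 0.66. Both kinases belong to the list of 24 other tau kinases, which had a median of -0.09. Before division by length, the highest counts of that list were those of *Camk2a* and *Camk2b*, which encode subunits of a calcium-dependent kinase of synapses, at 3496 and 802 CPM (counts in each 1000000 of the table's total) in the EC.

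The upstream regulators of these kinases had the lowest median of the lists other than cell type markers, at -0.20 over 8 matched genes. The lowest ratio was -0.44 for *Akt2*, which encodes an AKT kinase that inhibits GSK3B. *Akt1*, which encodes another, had a log2 ratio of -0.21 and stood at 140 CPM in the EC. *Stk11*, the activator of the MARK kinases, had a log2 ratio of -0.24.

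Among the 6 modifiers of PP2A, *Ppme1*, which encodes the enzyme that takes the methyl group off the catalytic subunit, had a log2 ratio of -0.48, just inside the limit. *Lcmt1*, which encodes the enzyme that adds it, had a log2 ratio of 0.08. The 7 genes of other phosphatases had a median of -0.06, from *Ppp3ca* at -0.47 to *Ppp3cc* at 0.11, both catalytic subunits of the calcium-activated phosphatase calcineurin. *Ppp3ca* and *Ppp3cb* had the highest counts of them, at 638 and 317 CPM in the EC.

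The 7 tau partners had a median of 0.00, from *Fkbp4* at -0.22 to *Fkbp5* at 0.42, which encode chaperone partners of HSP90. The highest counts were those of the chaperone genes *Hspa8* and *Hsp90aa1*, at 1881 and 1149 CPM in the EC. The 10 structural microtubule genes had a median of 0.04, from *Stmn1*, a gene of a protein that takes microtubules apart, at -0.22 to *Tubb2a*. *Map2* and *Map1a*, which encode other microtubule-associated proteins of neurons, had the highest counts of these, at 1774 and 1741 CPM in the EC.

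**Figure D4:**
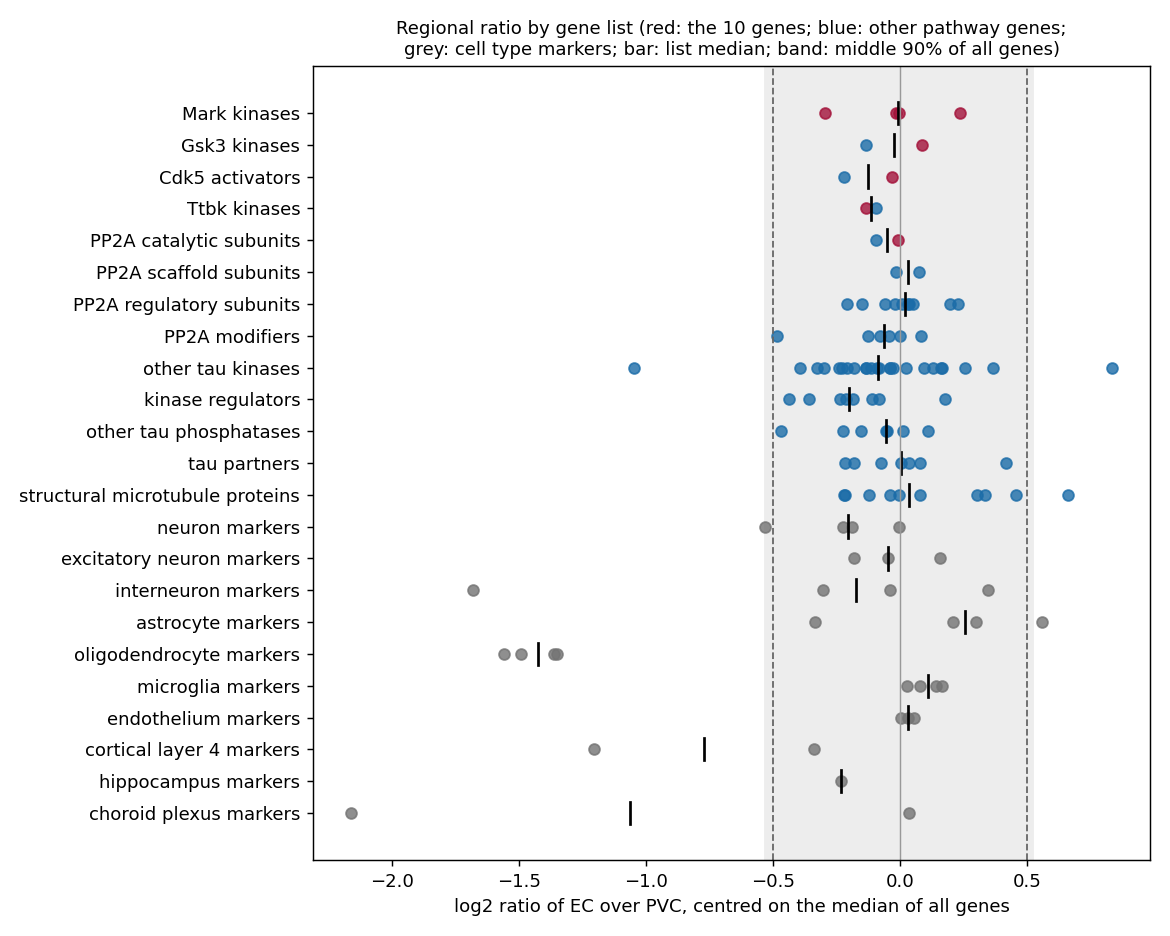
Each row is a gene list and each point a gene, placed by its log2 ratio of EC over PVC centred on the median of all genes. The band covers the middle 90% of all genes, from -0.53 to 0.52, and the red points of the 10 genes lie inside it, while all 4 oligodendrocyte markers lie on the PVC side at -1.35 or below.

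Markers of the cell types in the tissue were measured in the same tables. In bulk tissue, fewer cells of a type and less RNA per cell cannot be told apart. The 4 oligodendrocyte markers, which encode myelin proteins and include *Mbp*, *Mog* and *Mag*, were all higher in the PVC, with a median log2 ratio of -1.43 and a summed level of 787 CPM in the EC and 2018 CPM in the PVC. Of 4 matched neuron markers, *Snap25*, a synaptic gene, was past the limit, at -0.53, and the median was -0.21, with a summed level of 5290 CPM in the EC and 6694 CPM in the PVC. Excitatory neuron markers had a median of -0.05, from *Camk2a* at -0.18 to *Slc17a7* at 0.16. Interneuron markers went both ways, with a median of -0.17, from *Pvalb* at -1.68 to *Sst* at 0.35. Astrocyte markers had a median of 0.25, from *Aldh1l1* at -0.33 to *Aqp4* at 0.56. Their summed level was 1053 CPM in the EC and 890 CPM in the PVC. Microglia markers had a median of 0.11 and endothelium markers a median of 0.03. The part of these differences in cell make-up in the ratios of tau, its kinases and its phosphatase was not tested.

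The markers also bear on the labelled regions. *Rorb*, a gene of cortical layer 4, which is well developed in primary visual cortex, had a log2 ratio of -1.20, and *Scnn1a*, another gene of that layer, of -0.34. Of the 3 hippocampus markers, which are genes of the dentate gyrus, *Prox1* had a log2 ratio of -0.23. *C1ql2* and *Dsp* did not reach 100 in both tables and were higher in the EC, *C1ql2* with a mean normalized count of 325 in the EC against 50.5 in the PVC and *Dsp* with 35.7 in the EC against 9.69 in the PVC. Their part in the ratios of the 10 genes was not tested. *Ttr*, a gene of the choroid plexus, was higher in the PVC with a log2 ratio of -2.16 and low levels, its mean normalized count being 155 in the EC against 378 in the PVC, whereas *Kl*, another gene of that tissue, had a log2 ratio of 0.03. *Folr1* was near 0, at 9.89 in the EC against 5.00 in the PVC.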

How the data were processed

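RNA-sequencing tables of the EC and the PVC were analysed. Per the labels and the study's methods, the authors aligned 149-base single-end reads from an unstranded poly(A) kit to mm9 with TopHat2 2.0.6 and Bowtie2 2.0.2.0 and counted them with HTSeq against an NCBIM37 annotation stated to be limited to protein-coding genes. However, 4701 of the 25368 listed symbols that matched the annotation used here are annotated there only as not protein coding. DESeq2 1.10.1 was the tool the authors used for normalization and for their comparison of *APOE3/4* with *APOE3/3* mice. The deposited table of each region has, per gene, a mean normalized count over all 29 libraries, which was treated as a signal because both genotypes are pooled in it. Each table has 5 further columns (log2 fold change, its standard error, Wald statistic, *p*-value and adjusted *p*-value), which hold the authors' genotype comparison and were not used. As the tables have no values of single mice, no test was run, and the depth of each library is unknown.

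The tables were scaled by the median ratio over genes with at least 100 in both, and a log2 ratio of 0.5 (1.41-fold) was taken as the limit. Exon length is the union of a gene's exons, and coding length that of its longest coding transcript, in the GENCODE annotation of NCBIM37. All 88 listed member and pathway genes had a length, and 7 were listed under an older symbol. *Frat1* and *Rbfox3* were not analysed here. Paralogs were aligned with Biopython 1.88. Python 3.11.15, pandas 2.3.3, numpy 2.4.6 and matplotlib 3.10.9 were used, and the scaling and counting were tested on simulated data.

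The named genes are the 10 genes, their paralogs and partners, and from every other list the 2 with the highest count in the EC and the largest ratio in each direction. Some genes and sequences that this rule would name are not reported here. The 10 genes and all lists were chosen with earlier results of these data known. Alternatives were scaling on table totals or upper quartiles, minimums of 10 and 1000, limits of 0.25 and 1, other lengths and other sets of genes for percentiles.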

Additional observations from a re-analysis of the deposited data

How the results depend on the processing

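No paired analysis was possible because each table holds a single mean per gene, with no values of single mice, although the animal numbers are shared by the regions. For the same reason no library could be left out. With a limit of 0.25 in place of 0.5, 1 of the 10 genes (*Mark1*) was past it, as were 26.8% of all genes. With a limit of 1, none was, as in the report. The median ratio of the 10 genes, -0.0249, was -0.0421 with a minimum of 10 and -0.0097 with a minimum of 1000. The lowest median of the lists other than cell type markers, -0.1996, was -0.1919 when scaled on table totals and -0.1913 on upper quartiles. Another scale or minimum moved the ratio of any of the 10 genes by at most 0.017, and 2 of them changed sign. *Mark3* (-0.0031) was at 0.0045 on totals, 0.0052 on upper quartiles and 0.0121 with a minimum of 1000, and *Ppp2ca* (-0.0071) at 0.0005, 0.0012 and 0.008. The highest level over the lowest was 4.64 in the EC against 4.69 in the PVC per exon length, 7.76 and 9.43 with no division by length, and 10.6 and 12.8 per coding length. The lowest percentile of the 10 genes was 80.6 in the EC against 75.5 in the PVC, and 87.4 and 84.8 among all genes above 0. The family shares were computed with no minimum, so no other minimum was tried for them.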
